A study of Mus musculus with 4 samples.

Results

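The calcium/calmodulin-dependent kinases and the calmodulin-binding protein neurogranin were followed through 10 genes, matched by symbol in tables of 24421 genes. They are the 4 CaMKII subunit genes Camk2a, Camk2b, Camk2d and Camk2g, the CaMKII inhibitor genes Camk2n1 and Camk2n2, Nrgn, the CaM kinase kinase genes Camkk1 and Camkk2, and Camk4. All 10 were found, all were above 0 in every library, and all were among the 13619 genes tested. The study concerned ERK signalling in mice that model Noonan syndrome. Total RNA was sequenced from 4 libraries of brain cells, 2 labelled excitatory and described as αCaMKII-positive, and 2 labelled inhibitory and described as vGAT-positive. The labels name the mouse lines αCaMKII-Cre and vGAT-IRES-Cre, kept by crosses to wild-type C57Bl/6J, so Cre was driven by the promoter of αCaMKII or from the locus of the vesicular GABA transporter. Males of 3 to 5 months were used, no Noonan syndrome allele or treatment is named for any library, and the fluorescent reporter is not given in the sources used here. Each library holds 100 fluorescent cells drawn up by hand with a glass pipette. Whether the libraries of one label came from separate animals is not stated, so the p-values rest on how far these libraries spread, which may be technical.

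CaMKII is a holoenzyme of many subunits that is switched on when calcium-loaded calmodulin binds, and it can stay active through phosphorylation of itself after calcium has fallen. In forebrain neurons it is known for its part in long-term potentiation at glutamatergic synapses. CaM kinase kinases act upstream of a separate branch: they phosphorylate CaMKI and CaMKIV, and CaMKIV acts in the nucleus on the transcription factor CREB. Neurogranin holds calmodulin at low calcium and releases it when calcium rises.

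The deposited value of a gene was read as the log2 of its normalised reads, with low genes listed at 0, and each difference is excitatory minus inhibitory in log2 units. Excitatory and inhibitory name the libraries by their labels, since markers went both with and against them. Summed neuronal markers made up 0.259% and 0.262% of the linear values in the excitatory libraries, against 0.257% and 0.247% in the inhibitory libraries. Summed glutamatergic markers made up 0.0197% and 0.0200% of the linear values in the excitatory libraries, against 0.0122% and 0.0112% in the inhibitory libraries. Summed GABAergic markers made up 0.0189% and 0.0171% in the excitatory libraries, against 0.0165% and 0.0179% in the inhibitory libraries. Slc32a1, which encodes vGAT, had a listed value of 0 in all 4 libraries. Microglial markers made up 0.0448% and 0.0497% in the excitatory libraries, against 0.195% and 0.157% in the inhibitory libraries, and of 8 such markers, Cx3cr1 and Csf1r among them, 0 were higher and 5 lower in the excitatory libraries, and 0 and 7 after the median-of-ratios scaling described below. Of 7 oligodendrocyte markers 4 were higher and 0 lower as deposited, and 4 and 2 after that scaling; of 8 astrocyte markers 6 were higher and 0 lower, and 3 and 2 after it. Of all tested genes 45.0% were higher and 26.8% lower as deposited, and 32.4% and 33.5% after it. The summed oligodendrocyte markers made up 3.75% to 3.80% in the excitatory libraries, against 5.04% to 5.13% in the inhibitory libraries, and the summed astrocyte markers 2.58% to 2.63% in the excitatory libraries, against 2.19% to 2.37% in the inhibitory libraries. Of 6 endothelial markers, Cldn5, Ly6c1, Kdr and Tek were at 0 in all 4 libraries. The part of other cell types in the results below was not tested, and in bulk libraries fewer cells of a type and less RNA per cell cannot be told apart.

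The deposited scaling placed the median of all tested genes 0.52 higher in the excitatory libraries. Each member is therefore also given after median-of-ratios scaling, which places that median at -0.01, and after setting the mean of 7 neuronal markers equal in all libraries, a scaling chosen after seeing the data. These are called the scaled and the neuron-scaled difference. The 7 neuronal markers did not move together: 4 were higher and 1 lower in the excitatory libraries as deposited, and 2 and 2 after median-of-ratios scaling. Syt1 had 13.79 and 13.70 in the excitatory libraries, against 11.86 and 12.09 in the inhibitory libraries. Tubb3 went the other way, with 8.89 and 9.005 against 11.47 and 11.16. The neuron-scaled values thus rest on an average of markers that differ in direction. In the deposited values 5 members were higher in the excitatory libraries (Camk2a, Camk2d, Camk2n1, Nrgn and Camkk2), 2 were lower (Camkk1 and Camk4) and 3 did not pass an adjusted p of 0.05 in limma's test. Of all tested genes 71.8% passed, 45.0% as higher and 26.8% as lower, so the members' share of calls was near that of all genes. After scaling 3 members were higher (Camk2a, Camk2d and Camk2n1) and 3 lower (Camk2b, Camkk1 and Camk4), against 32.4% and 33.5% of all genes, or 65.9% in either direction. Camk2a, Camk2d, Camk2n1, Camkk1 and Camk4 passed with the same direction in both. The median difference of the members was 0.37, against 0.52 over all tested genes, and -0.17 after scaling, against -0.01. The libraries of the 2 labels did not overlap for 10 of 10 members, which also held for 86.4% of tested genes, and after scaling for 9 of 10, against 83.3%.

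**Figure D1:**
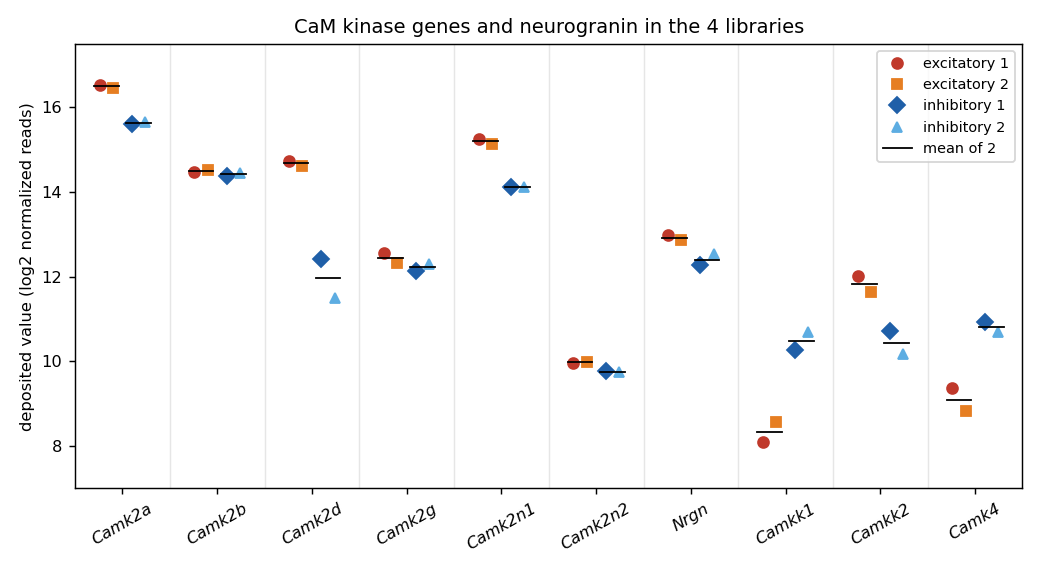
Deposited value (log2 normalised reads) of each of the 10 genes in each of the 4 libraries, with 1 point per library and a line at the mean of the 2 libraries of a label. Camk2d, Camkk1, Camkk2 and Camk4 show the widest gaps between the means of the labels. Camk2b shows the narrowest, with 14.49 and 14.52 in the excitatory libraries, against 14.37 and 14.46 in the inhibitory libraries.

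The plot of values by library shows the members spread over a wide range, with Camk2a highest in every library and Camkk1 lowest in the excitatory ones. Libraries with one label lay close together for the abundant members and further apart for Camk2d among the inhibitory libraries. The lowest member value, that of Camkk1 in excitatory replicate 1, was estimated from the spacing of the low values to rest on 212 reads. Every other member value rested on more. Counting of 212 reads alone carries an error of 6.87%, which leaves out the spread from making and amplifying cDNA. For Camk2d that counting error was at most 1.73%, yet the inhibitory libraries had 12.42 and 11.51.

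Gene positions are those of GENCODE M21 on GRCm38, the assembly also called mm10. Among the CaMKII subunits Camk2d differed most and Camk2a less, while Camk2b and Camk2g did not pass in the deposited values. Camk2a, on chromosome 18, encodes the α subunit of CaMKII and gave its name to the αCaMKII-Cre line. It had 16.53 and 16.47 in the excitatory libraries, against 15.60 and 15.66 in the inhibitory libraries. Both excitatory libraries were above both inhibitory ones, by 1.83-fold (log2 0.87, SE 0.061, limma adjusted p = 3.18e-04), and the call held whichever library was left out. The scaled difference was 0.33 (SE 0.056, adjusted p = 0.00677), which no longer passed when excitatory replicate 1 (adjusted p = 0.0826) or 2 (0.0823) was left out. The neuron-scaled difference was 0.61 (adjusted p = 0.00193). Of all tested genes, 59.4% had a lower signed difference than Camk2a.

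Camk2d (chr3:126596302-126846326) encodes the δ subunit, best known from heart muscle, and also made in brain. It had 14.73 and 14.63 in the excitatory libraries, against 12.42 and 11.51 in the inhibitory libraries. The excitatory libraries lay close to each other and far above both inhibitory ones, which differed between themselves. The difference was 6.57-fold (log2 2.72, SE 0.32, limma adjusted p = 0.00159), and 4.51-fold after scaling (log2 2.17, adjusted p = 0.00574). The call was not kept with excitatory replicate 1 (adjusted p = 0.0980) or 2 (0.0932) left out and held without either inhibitory library; the scaled call did likewise (adjusted p = 0.148 and 0.147 without those libraries). Of all tested genes, 81.0% had a lower signed difference.

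The β subunit gene Camk2b, whose product binds actin in spines, lies at chr11:5969644-6066362 and stayed nearly level as deposited. It had 14.49 and 14.52 in the excitatory libraries, against 14.37 and 14.46 in the inhibitory libraries, a difference of 0.08 (95% interval -0.14 to 0.30, limma adjusted p = 0.413). After scaling it was lower in the excitatory libraries by -0.46 (SE 0.083, adjusted p = 0.00824). That call was lost without excitatory replicate 1 (adjusted p = 0.0571), inhibitory replicate 1 (0.0644) or inhibitory replicate 2 (0.0652). The neuron-scaled difference was -0.18 (adjusted p = 0.174), so its direction depended on the scaling. Camk2g, the γ subunit gene (chr14:20734875-20794088), had 12.55 and 12.32 in the excitatory libraries, against 12.14 and 12.31 in the inhibitory libraries. Excitatory replicate 2 and inhibitory replicate 2 were nearly equal, and the difference was 0.21 as deposited (95% interval -0.20 to 0.62, adjusted p = 0.283), -0.33 scaled (-0.69 to 0.03, adjusted p = 0.0871) and -0.05 neuron-scaled (-0.50 to 0.40).

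**Figure D2:**
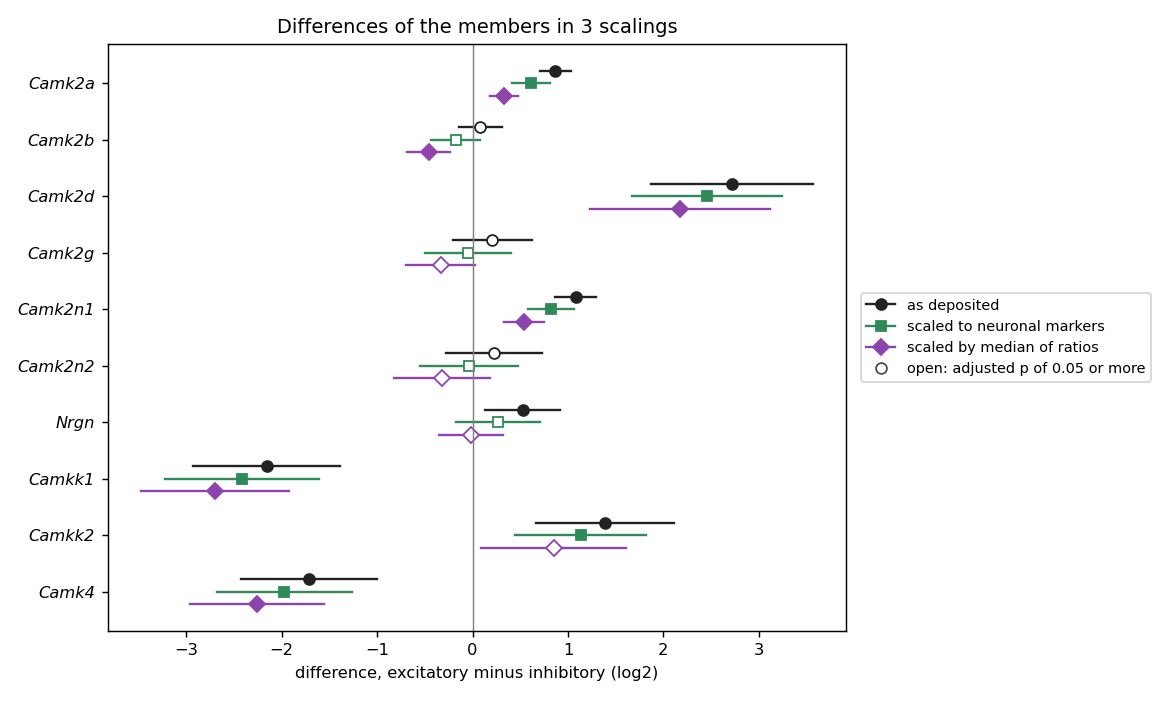
Difference of each member, excitatory minus inhibitory (log2), as deposited, neuron-scaled and scaled by median of ratios, with 95% intervals over the 4 libraries; filled points passed an adjusted p of 0.05. Camk2d, Camkk1 and Camk4 keep the widest distance from 0 in all 3 scalings, while Camk2b, Camk2g, Camk2n2 and Nrgn change sign in at least 1 of them.

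The plot of differences shows that a change of scaling moves each member by a like amount. Median-of-ratios scaling turned the direction of Camk2b, Camk2g, Camk2n2 and Nrgn, whose deposited differences were 0.08, 0.21, 0.22 and 0.53, and of no other member.

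Shares of the subunits within a library do not depend on library scaling. Values were divided by the length of the union of exons and summed over the 4 subunits. Camk2a made up 73.1% and 73.0% of the subunit reads per kb in the excitatory libraries, against 67.0% and 67.1% in the inhibitory libraries. Camk2b made up 14.5% and 15.5% in the excitatory libraries, against 23.4% and 24.0% in the inhibitory libraries. Camk2d made up 6.96% and 6.78% in the excitatory libraries, against 2.45% and 1.25% in the inhibitory libraries. Camk2g made up 5.42% and 4.80% in the excitatory libraries, against 7.11% and 7.70% in the inhibitory libraries. For each subunit the labels did not overlap, but 2 libraries against 2 cannot give an exact two-sided permutation p below 0.333, so no test was made. The difference for Camk2a was 6.00 percentage points with union exons, 3.01 with the longest transcript and 0.615 with no length correction, where the labels overlapped (62.8% and 62.7% in the excitatory libraries, 61.4% and 62.8% in the inhibitory libraries). For Camk2b, Camk2d and Camk2g the direction was the same with each of the 3 lengths, but the shares moved. Camk2d averaged 15.6% with the longest transcript and 17.8% with no correction in the excitatory libraries, against 4.34% and 5.15% in the inhibitory libraries, so its difference of 5.02 points with union exons was 11.2 and 12.6 points. The difference for Camk2g was -2.30, -2.47 and -2.12 points with union exons, the longest transcript and no correction, which in the last case was larger in size than that for Camk2a.

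**Figure D3:**
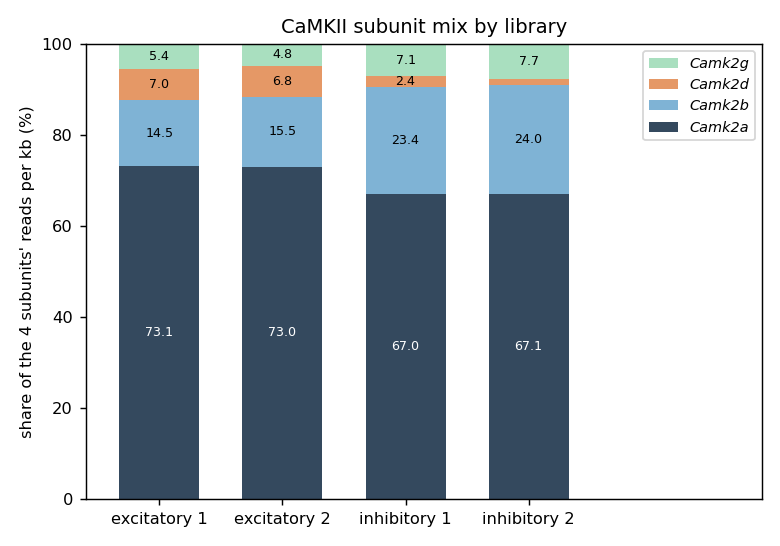
Share of each CaMKII subunit gene in the summed reads per kb of the 4 subunits (%), 1 bar per library, with union exon lengths. The excitatory bars hold more Camk2a and Camk2d, and the inhibitory bars more Camk2b and Camk2g; the smallest segment, Camk2d in inhibitory replicate 2, is 1.25%.

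The bars of subunit shares show a mix that differs little between libraries of one label. The Camk2d segment is the exception, with 2.45% in inhibitory replicate 1 and 1.25% in inhibitory replicate 2. As ratios within a library, Camk2a was 5.04 and 4.72 times Camk2b in the excitatory libraries, against 2.86 and 2.80 times in the inhibitory libraries. Camk2d was 0.480 and 0.439 times Camk2b in the excitatory libraries, against 0.105 and 0.0523 times in the inhibitory libraries. With the longest transcript it was 0.883 and 0.808 times in the excitatory libraries, against 0.193 and 0.0962 times in the inhibitory libraries, and Camk2a was 3.43 and 3.21 times Camk2b in the excitatory libraries, against 1.94 and 1.90 times in the inhibitory libraries. Camk2g over Camk2b overlapped, with 0.374 and 0.310 in the excitatory libraries, against 0.304 and 0.321 in the inhibitory libraries.

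Camk2n1 (chr4:138454314-138460123) encodes a small protein that binds and inhibits active CaMKII, and it was higher in the same libraries as Camk2a. It had 15.25 and 15.15 in the excitatory libraries, against 14.11 and 14.13 in the inhibitory libraries. Libraries of one label agreed closely, and the excitatory ones were higher by 2.11-fold (log2 1.08, SE 0.083, limma adjusted p = 4.17e-04), a call that held whichever library was left out. The scaled difference was 0.54 (SE 0.078, adjusted p = 0.00409), not kept with excitatory replicate 1 (adjusted p = 0.0581) or 2 (0.0539) left out, and the neuron-scaled one was 0.82 (adjusted p = 0.00142). Camk2n2 (chr16:20619215-20621287), the gene of a related inhibitor, had 9.97 and 9.995 in the excitatory libraries, against 9.78 and 9.74 in the inhibitory libraries. The difference was 0.22 (95% interval -0.28 to 0.73, adjusted p = 0.342) and -0.32 scaled (-0.82 to 0.19, adjusted p = 0.201), so it did not pass in either. Camk2n1 was 11.3 and 10.3 times Camk2n2 per kb in the excitatory libraries, against 5.84 and 6.08 times in the inhibitory libraries. Both inhibitors together reached 0.551 and 0.539 of the summed subunits in the excitatory libraries, against 0.469 and 0.456 in the inhibitory libraries. These levels hold for union exon lengths only, since the length used for the subunits moves them.

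Nrgn, the neurogranin gene (chr9:37544492-37552904), had 12.99 and 12.87 in the excitatory libraries, against 12.27 and 12.53 in the inhibitory libraries. It was higher by 1.44-fold in the deposited values (log2 0.53, SE 0.15, limma adjusted p = 0.0283), and the call was lost whichever of the 4 libraries was left out (adjusted p = 0.0547 to 0.185). That difference was close to the median of all genes, with 50.1% of tested genes below it. After scaling it was -0.02 (95% interval -0.35 to 0.32, adjusted p = 0.917), where the labels overlapped, and neuron-scaled it was 0.27 (-0.18 to 0.71, adjusted p = 0.219). Nrgn per kb was 0.440 and 0.425 of Camk2a in the excitatory libraries, against 0.511 and 0.589 in the inhibitory libraries. With the longest transcript it was 0.293 and 0.283 in the excitatory libraries, against 0.340 and 0.392 in the inhibitory libraries. Relative to Camk2a, Nrgn was thus lower in both excitatory libraries with either length.

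The kinase kinases went opposite ways. Camkk1 (chr11:73019008-73042073) encodes CaM kinase kinase α. It had 8.10 and 8.56 in the excitatory libraries, against 10.28 and 10.70 in the inhibitory libraries. Both excitatory libraries were below both inhibitory ones, by 4.47-fold (log2 -2.16, SE 0.29, limma adjusted p = 0.00251), and the scaled difference was -2.70 (adjusted p = 0.00153). In the deposited values the call was lost whichever library was left out (adjusted p = 0.0507 to 0.0666), and the scaled call without inhibitory replicate 1 (0.0535) or inhibitory replicate 2 (0.0619). Camkk2 (chr5:122731170-122779409) encodes CaM kinase kinase β, which also phosphorylates the energy sensor AMPK. It had 12.03 and 11.64 in the excitatory libraries, against 10.73 and 10.16 in the inhibitory libraries. The excitatory libraries were higher by 2.62-fold (log2 1.39, SE 0.27, limma adjusted p = 0.00879), a call lost whichever library was left out (adjusted p = 0.0604 to 0.146). The scaled difference of 0.85 did not pass (95% interval 0.09 to 1.61, adjusted p = 0.0543), and the neuron-scaled one of 1.13 did (adjusted p = 0.0154). Within a library Camkk1 was 0.192 and 0.345 times Camkk2 per kb in the excitatory libraries, against 2.14 and 4.25 times in the inhibitory libraries. With the longest transcript as the length the ratio was 0.0857 and 0.154 in the excitatory libraries, against 0.956 and 1.90 in the inhibitory libraries. Camkk2 was thus the more abundant of the pair in both excitatory libraries with either length, while which was more abundant in inhibitory replicate 1 depended on the length.

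Promoter sequences are shown for the subunit gene that differed most and for the kinase kinases that went opposite ways. They are the RefSeq promoters of GRCm38.p6, 250 bases before to 50 after the gene's start, read 5′ to 3′ on the gene's strand. The start is RefSeq's; for Camk2d it lies downstream of the GENCODE start given above, so that the stretch shown is inside the GENCODE gene. RefSeq promoters were matched for 6 of the 10 members. Capitals mark the GC box GGGCGG, the CCAAT box CCAAT and TGACG, the half-site of the cAMP response element bound by CREB, each on either strand, where overlapping matches run together. Camk2d lies at chr3:126596701-126597000 (+), Camkk1 at chr11:73018738-73019037 (+) and Camkk2 at chr5:122779361-122779660 (-).
Camk2d: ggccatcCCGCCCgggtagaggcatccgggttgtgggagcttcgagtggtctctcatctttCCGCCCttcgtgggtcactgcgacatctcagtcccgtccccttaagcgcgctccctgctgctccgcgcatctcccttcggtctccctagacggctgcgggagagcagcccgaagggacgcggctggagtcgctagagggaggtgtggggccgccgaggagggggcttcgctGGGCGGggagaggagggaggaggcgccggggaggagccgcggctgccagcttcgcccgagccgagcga
Camkk1: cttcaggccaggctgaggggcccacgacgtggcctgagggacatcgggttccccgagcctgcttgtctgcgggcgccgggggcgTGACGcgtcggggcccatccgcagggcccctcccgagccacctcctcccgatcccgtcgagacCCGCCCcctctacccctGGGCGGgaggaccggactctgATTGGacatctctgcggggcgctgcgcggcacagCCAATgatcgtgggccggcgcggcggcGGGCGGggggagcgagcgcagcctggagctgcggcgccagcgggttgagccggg
Camkk2: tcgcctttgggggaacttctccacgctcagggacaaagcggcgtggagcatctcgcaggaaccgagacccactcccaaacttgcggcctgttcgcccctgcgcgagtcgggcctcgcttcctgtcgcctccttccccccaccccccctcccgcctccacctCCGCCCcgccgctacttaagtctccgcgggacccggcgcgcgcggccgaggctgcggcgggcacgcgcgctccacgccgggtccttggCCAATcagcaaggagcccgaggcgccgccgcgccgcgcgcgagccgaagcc
The Camk2d promoter holds 3 GC boxes and neither other motif. The Camkk1 promoter holds 3 GC boxes, 2 CCAAT boxes and 1 TGACG, and the Camkk2 promoter 1 GC box and 1 CCAAT box. Among 32851 promoters of the same length 35.7% hold a GC box, 37.4% a CCAAT box and 20.8% a TGACG. Their GC content was 70.3%, 75.3% and 73.3% in the order printed, against a median of 52.7% over all promoters. The whole response element TGACGTCA, held by 1.79% of promoters, was in none of the 6 members' promoters. A match describes these letters and is not evidence of binding.

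Camk4, on chromosome 18, encodes the nuclear kinase CaMKIV. It had 9.36 and 8.82 in the excitatory libraries, against 10.92 and 10.69 in the inhibitory libraries. It was lower in both excitatory libraries, by 3.28-fold (log2 -1.72, SE 0.27, limma adjusted p = 0.00417), with a scaled difference of -2.26 (adjusted p = 0.00201). The call was not kept with inhibitory replicate 1 (adjusted p = 0.0975) or 2 (0.0813) left out. Without those same libraries the scaled call was lost as well (adjusted p = 0.0663 and 0.0577). Of its exons 72 bases overlap a gene on the opposite strand that was not used here, and the kits are not described as marking strand. Camk4 and Camkk1 had the same direction as the microglial markers named above. The members called higher as deposited had the direction of all astrocyte and oligodendrocyte markers that passed as deposited, though after scaling those markers went both ways. The part of any of these cells in the members' values was not tested. Camk4 over Camkk1 per kb overlapped between labels, with 2.75 and 1.37 in the excitatory libraries, against 1.79 and 1.14 in the inhibitory libraries.

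**Figure D4:**
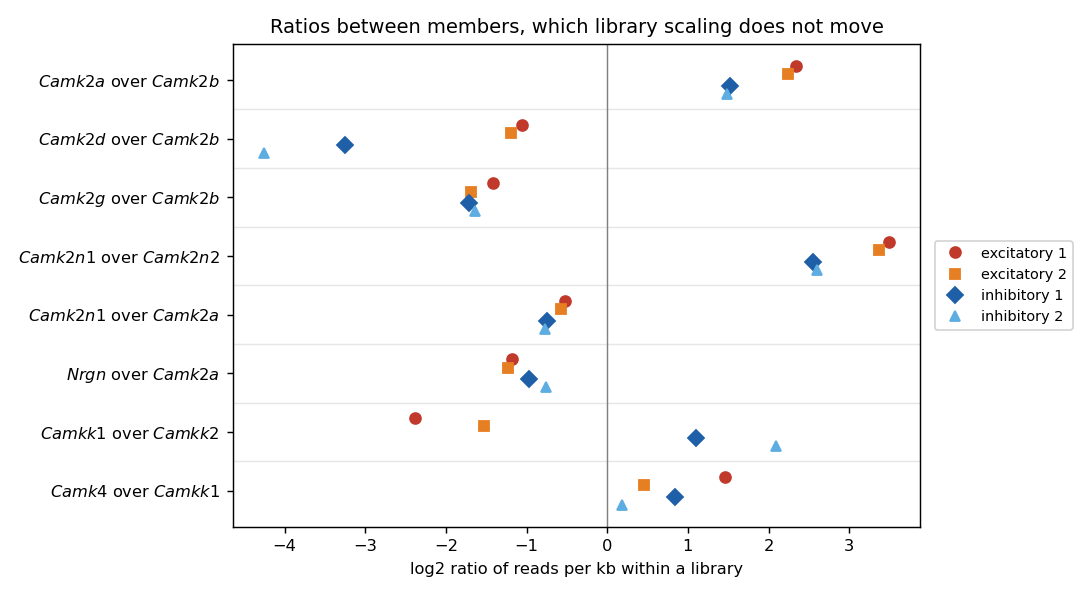
Log2 ratio of reads per kb between pairs of members within each of the 4 libraries, 1 point per library; 0 marks equal reads per kb. Camkk1 over Camkk2 lies below 0 in both excitatory libraries (0.192 and 0.345 as ratios) and above 0 in both inhibitory libraries (2.14 and 4.25) with union exon lengths; Camk2g over Camk2b and Camk4 over Camkk1 overlap.

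The plot of ratios holds the same comparisons free of library scaling; the gene length used moves all 4 points of a ratio together, so their distance from each other does not depend on it. Of the 8 ratios drawn, Camkk1 over Camkk2 and Camk2d over Camk2b stand furthest apart between labels, at -3.55 and 2.63 on the log2 scale.

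Per kb of union exon, no neighbours in the order of the 10 genes overlapped in the excitatory libraries. The mean log2 reads per kb there was 13.60 for Camk2a, 13.05 for Camk2n1, 12.39 for Nrgn and 11.31 for Camk2b. Below them came Camk2d at 10.19, Camk2g at 9.76, Camk2n2 at 9.62, Camkk2 at 8.39, Camk4 at 7.39 and Camkk1 at 6.43. The inhibitory libraries kept the first 4 in that order, with Camk2a at 12.73, Camk2n1 at 11.97, Nrgn at 11.86 and Camk2b at 11.23, where Camk2n1 and Nrgn overlapped. Camk2d held rank 5 of 10 in the excitatory libraries and rank 9 in the inhibitory ones, where its mean was 7.47 ± 0.65 (SD, n = 2) and overlapped that of Camkk2, 6.996 ± 0.40. Camk4 and Camkk1, at 9.10 and 8.59, stood above both there. The order depended on the length: with the longest transcript Camk2b held rank 3 in the excitatory libraries and rank 2 in the inhibitory ones, and Camk2d rank 5 and rank 6.

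Around the members, 58 genes in 9 lists of the calmodulin pathway were examined, of which 52 were tested. In the deposited values 27 were higher and 10 lower in the excitatory libraries, 71.2% of those tested against 71.8% of all genes. After scaling 16 were higher and 17 lower, 63.5% against 65.9%. Of 30 genes chosen by a rule of smallest p, 2 were listed at 0 in both inhibitory libraries (Camk1g and Prkaa1) and had passed the filter on low values through the excitatory libraries alone. Of the other 28, 7 kept their deposited call whichever library was left out: Camk1d, Camkv, Cacng2, Crem, Crtc1, Ppm1e and Ppp1ca. Camk1d, Camkv, Crem and Ppm1e also kept their scaled call in this way, while Ppp1ca did not pass after scaling (limma adjusted p = 0.121). Among all called genes with no label at 0, 35.2% kept the deposited call whichever library was left out, and 29.3% the scaled one.

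Of 5 other CaM kinases 3 were higher and 1 lower, and 2 and 2 after scaling. Camk1d, a CaMKI isoform and so a substrate of the kinase kinases, had 9.31 and 9.36 in the excitatory libraries, against 13.00 and 12.55 in the inhibitory libraries. It was lower by 10.8-fold (limma adjusted p = 2.39e-04; scaled -3.98, adjusted p = 2.75e-04), the same direction as Camkk1 and Camk4. Camkv, a kinase-like protein without known kinase activity, had 13.22 and 12.99 in the excitatory libraries, against 11.05 and 11.12 in the inhibitory libraries, 4.04-fold higher (adjusted p = 3.93e-04). Camk1g had 5.45 and 3.89 in the excitatory libraries, against a listed 0 in both inhibitory ones.

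Of 7 tested calcineurin genes (Ppp3r2 was at 0 in all 4 libraries), the calmodulin-activated phosphatase and its regulators, 3 were higher and 1 lower, and 2 and 3 after scaling. Ppp3cc, a catalytic subunit, had 12.33 and 12.77 in the excitatory libraries, against 6.54 and 7.58 in the inhibitory libraries (limma adjusted p = 4.19e-04), which needed excitatory replicate 2 (adjusted p = 0.0539 without it). Rcan1, a calcineurin regulator, had 11.75 and 11.52 in the excitatory libraries, against 8.17 and 7.48 in the inhibitory libraries (adjusted p = 4.99e-04), lost without excitatory replicate 1 (0.0516). Rcan2, a related regulator, went the other way, with 14.42 and 14.20 in the excitatory libraries, against 15.02 and 15.22 in the inhibitory libraries. Its difference was -0.82 (limma adjusted p = 0.00365) and -1.36 scaled (adjusted p = 4.70e-04). Of 5 calmodulin buffers such as Gap43 and Pcp4, which bind calmodulin as neurogranin does, 3 were higher and 0 lower, and 0 passed after scaling. Of 8 calmodulin-activated enzymes 3 were higher and 3 lower, and 2 and 4 after scaling. The cyclic nucleotide phosphodiesterase gene Pde1b had 8.33 and 8.19 in the excitatory libraries, against 10.24 and 11.20 in the inhibitory libraries (adjusted p = 0.00383), not kept with excitatory replicate 1 (adjusted p = 0.110) or 2 (0.118) left out.

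Of 7 tested CaMKII partners at the synapse 5 were higher and 2 lower in the excitatory libraries, and 4 and 2 after scaling. Grin1, the obligate NMDA receptor subunit, had 11.05 and 10.81 in the excitatory libraries, against 6.20 and 7.32 in the inhibitory libraries (limma adjusted p = 0.00111), which no longer passed when excitatory replicate 1 (adjusted p = 0.0780) or 2 (0.0726) was left out. Cacng2, an AMPA receptor auxiliary subunit, had 8.87 and 9.31 in the excitatory libraries, against 5.20 and 5.71 in the inhibitory libraries (adjusted p = 8.42e-04). Shank3, a postsynaptic scaffold, went the other way, with 9.31 and 9.17 in the excitatory libraries, against 10.31 and 10.30 in the inhibitory libraries (adjusted p = 0.00752), not kept with inhibitory replicate 1 (adjusted p = 0.0582) or 2 (0.0563) left out. Grin2a and Actn2 were listed at 0 in all 4 libraries.

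Of 7 tested genes of the CREB branch 5 were higher and 1 lower, and 4 and 1 after scaling. Creb1 had 13.06 and 12.90 in the excitatory libraries, against 10.91 and 10.15 in the inhibitory libraries (limma adjusted p = 0.00164), which no longer passed when excitatory replicate 1 (adjusted p = 0.0916) or 2 (0.0844) was left out. Crtc1, a CREB coactivator, had 12.39 and 12.30 in the excitatory libraries, against 10.85 and 10.62 in the inhibitory libraries (adjusted p = 9.68e-04). The gene that was lower was Crem, a CREB relative with activating and repressing forms, at 8.29 and 7.72 in the excitatory libraries, against 14.77 and 15.21 in the inhibitory libraries (adjusted p = 9.49e-05). Its direction was that of Camk4, and that of Creb1 the opposite.

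Of 5 tested AMPK subunit genes, whose complex is a target of the kinase encoded by Camkk2, 1 was higher (Prkaa1) and 1 lower, and 1 and 2 after scaling. Prkaa1, a catalytic subunit, had 11.72 and 11.44 in the excitatory libraries, against a listed 0 in both inhibitory ones. Prkag2, a regulatory subunit, had 5.54 and 3.47 in the excitatory libraries, against 12.75 and 12.62 in the inhibitory libraries (limma adjusted p = 6.43e-04), which no longer passed when inhibitory replicate 1 (adjusted p = 0.0652) or 2 (0.0633) was left out. Such gaps were common: 754 tested genes (5.54%) were at 0 in both inhibitory libraries with at least 5 in both excitatory ones, and 731 (5.37%) the reverse. Of 5 phosphatases that act on CaM kinases 2 were higher and 1 lower, and 1 and 2 after scaling. Ppm1e had 8.42 and 7.96 in the excitatory libraries, against 11.43 and 11.28 in the inhibitory libraries (adjusted p = 4.54e-04). Ppm1f, which dephosphorylates CaMKII, had 10.02 and 10.09 in the excitatory libraries, against 6.03 and 6.94 in the inhibitory libraries (adjusted p = 0.00121), not kept with excitatory replicate 1 (adjusted p = 0.0717) or 2 (0.0730) left out.

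**Figure D5:**
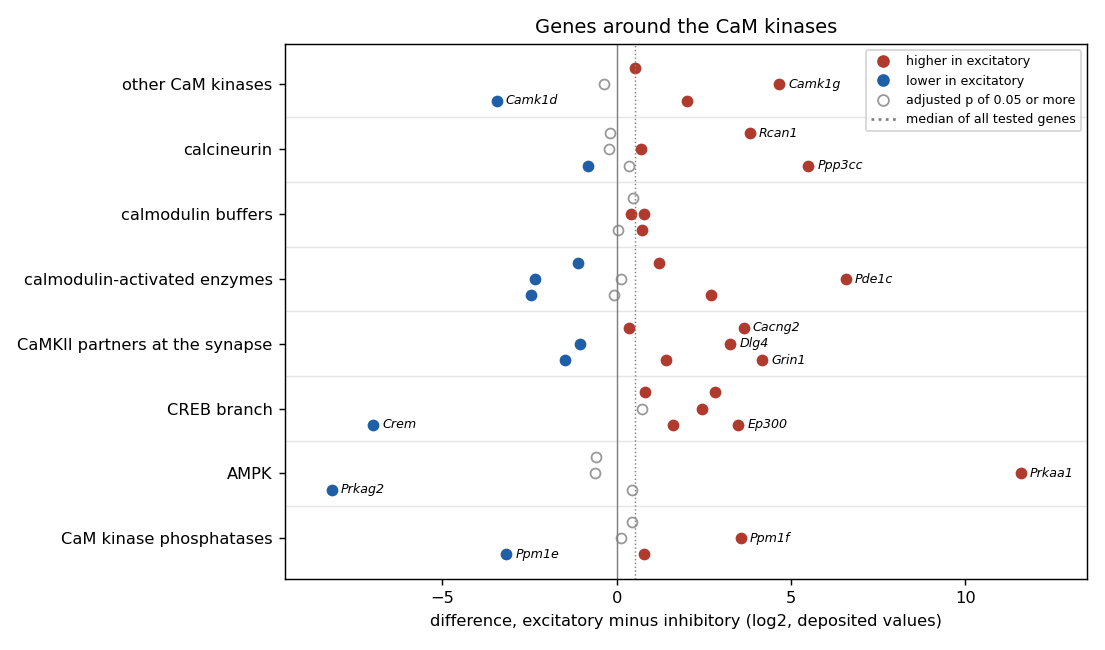
Difference of each tested gene, excitatory minus inhibitory (log2, deposited values), in 8 of the lists, with 1 point per gene and filled points for an adjusted p under 0.05. The dotted line marks the median of all tested genes, 0.52; the synaptic CaMKII partners and the CREB branch have medians of 1.42 and 1.61, and Crem, Prkag2 and Prkaa1 lie furthest out.

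The plot of lists shows both directions in most of them. Medians after scaling were 0.87 for the synaptic partners and 1.07 for the CREB branch, and -1.13 for the AMPK genes, against -0.01 over all tested genes.

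The genes whose values followed a member most closely over the 4 libraries, by the distance between profiles after taking off each gene's mean, were searched among 4781 genes with a mean of at least 10. For Camk2a they were Hrsp12 (distance 0.0256), Vps28 (0.0282) and Mrps12 (0.0291). For Nrgn they were the tables' entries Mir5121 (0.0205) and Snord33 (0.0237), which hold nearly the same values as each other, and Anapc13 (0.0310). With 4 libraries such likeness is a description of these libraries.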

How the data were processed

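Cells were profiled as total RNA, 100 per library, with SMART-seq v4 cDNA and Nextera XT libraries, per the labels' protocols. The submitters' processing notes list TopHat, edgeR and build mm10; for versions, roles, counter and annotation, the sources used here say nothing. The deposited values are on a log2 scale: low values lie at whole multiples of a step of 1.30, 1.23, 0.720 and 0.873 in excitatory 1, excitatory 2, inhibitory 1 and inhibitory 2 once 2 is raised to them, from which it was inferred that the libraries were scaled by different factors and that values below 1 were listed at 0. That form was read from the values; what transform the authors used is not settled. The depth is not recorded; the steps give about 61890585 to 74274302 reads per library. Mbp, one of the oligodendrocyte markers, was the highest gene in all 4 libraries. It had the same value of 21.331 in each, although the steps differed. Whether the deposited scale was set by this gene or capped at that value is not stated. Its part in the offset of 0.52 in the median of all tested genes was not tested.

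In R 4.3.3, limma 3.58.1 fitted excitatory minus inhibitory with eBayes trend over the 13619 genes that reached 1 in 2 or more libraries, Benjamini-Hochberg adjustment over them and a threshold of 0.05. Of 24421 genes 9583 were at 0 in all libraries. No pseudocount was added to the deposited values for the main fit. In the scalings 1 was taken off the linear values before dividing and added back before the log. The reading of the values given above does not call for that step, and median-of-ratios scaling without it is among the alternatives. Within labels libraries correlated at 0.984 and 0.980, and between labels at 0.525 to 0.532, across genes. Gene lengths came from GENCODE release M21, where 95.8% of symbols matched. Alternatives were other scalings, filters, a pseudocount of 10, no trend, a replicate block and leaving out each library. Of each pathway list up to 4 genes past the threshold with the smallest p were eligible to be named, plus genes at 0 under one label; not all are printed. Of the 9 lists, that of the calmodulin genes is not reported here and enters only the totals. The neuronal markers were Snap25, Rbfox3, Map2, Syt1, Stmn2, Tubb3 and Eno2. The members and lists were chosen with earlier results of these data known. Sequences of members on chromosome 18 and of members without a RefSeq promoter are not shown.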

Additional observations from a re-analysis of the deposited data

How the results depend on the processing

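Counts are of genes past an adjusted p of 0.05 in limma's test, and signed values of single genes are log2 differences, excitatory minus inhibitory. With 1 library left out, the remaining library of that label is assumed to vary like the other label's. Leaving out each library in turn gave 6103 to 6551 of all genes, 3530 to 4241 higher and 2310 to 2627 lower. It left 3 members past the threshold each time, 2 to 3 of them higher and 0 to 1 lower, and 2 to 3 after scaling. Of the pathway genes it left 14 to 20, with 9 to 16 higher and 4 to 5 lower. Under median-of-ratios scaling 3 members were higher, and with that scaling without the trend 3 members passed. Pathway genes higher and lower numbered 16 and 17 under median-of-ratios scaling, 17 and 16 under upper-quartile scaling, and 17 and 17 under total scaling. Median-of-ratios scaling of the values without 1 taken off, chosen after seeing the data, gave 16 and 17, and 3 members higher. Under median-of-ratios, upper-quartile, total and neuron scaling, and median-of-ratios scaling without 1 taken off, Camk2b turned to -0.46, -0.44, -0.47, -0.18 and -0.45, Camk2g to -0.33, -0.31, -0.34, -0.051 and -0.33, and Camk2n2 to -0.32, -0.30, -0.33, -0.037 and -0.31. Under median-of-ratios, total and the last scaling Nrgn turned to -0.017, -0.023 and -0.012, and Camk1 to -0.0087, -0.015 and -0.0036. Pcp4 turned to -0.12, -0.10, -0.12 and -0.11 under median-of-ratios, upper-quartile, total and the last scaling. The share of Camk2a among subunits was 61.1% in excitatory and 58.1% in inhibitory libraries with the longest transcript, and 62.7% and 62.1% with no length correction. Libraries with the same number did not deviate together (correlation -0.007 over 10097 genes). That value cannot show whether they share an animal or a batch, since noise within single libraries could hide it. The replicate block gave 9782 genes past the threshold, 7 members and 35 pathway genes. The cause of these shifts was not tested. With 2 libraries per label, small differences remain undetectable, and the depth of the low genes is only estimated.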
